A study of Bos taurus with 12 samples.

Results

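GLIS3 and IKZF1 are genes for zinc finger transcription factors, and 9 of the 7290 tiles in the authors' deposited table of bull sperm DNA methylation carry their names. GLIS3 (ENSBTAG00000014467) is named for 5 tiles on chromosome 8 and IKZF1 (ENSBTAG00000014016) for 4 tiles on chromosome 4. The tiles were chosen by the gene description in their annotation. The genes themselves were picked with the deposited differences and q-values known, so what follows describes these values and adds no test of them. Sperm of Bos taurus bulls was assayed by enzymatic methylation sequencing (EM-seq), which reads methylated cytosines as C and converted, unmethylated cytosines as T. The labels give 6 samples named low BFI and 6 named high BFI, all sperm cells from males, and do not spell out BFI, the breed, the age or whether each sample is a separate bull. The table sets these groups against each other for tiles of 500 bp, each with the authors' p-value, their q-value and the difference in methylation, which was read as percentage points. It holds no value of a single sample, so no level, coverage or spread between samples can be given, and what the p-values and q-values say about the spread between replicates is unknown.

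GLIS3 and IKZF1 proteins bind DNA through fingers of the cysteine-histidine type. GLIS3 is a relative of the GLI factors of hedgehog signalling. It is known for its part in the development of pancreatic beta cells and the thyroid, and loss of it causes neonatal diabetes with hypothyroidism. IKZF1 encodes Ikaros, which directs lymphocyte development, works with chromatin remodelling complexes and pairs with other Ikaros family members through a separate set of fingers. Mature sperm are transcriptionally silent and package most of their DNA with protamines. A methylation level in sperm is therefore a record of the germ line rather than of current expression.

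The genes stood on opposite sides of 0 in the deposited comparison. All 5 tiles of GLIS3 had a negative difference, between -13.9 and -11.1 percentage points, and all 4 tiles of IKZF1 had a positive one, between 2.98 and 4.97 percentage points, in the authors' deposited table. The sources used here do not say which of the groups was subtracted. The opposite signs hold whichever it was, but the more methylated group cannot be named for either gene. Sperm DNA is a bulk sample, so a different mix of cells and a different methylation level per cell cannot be told apart.

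The GLIS3 tiles form 1 run of 900 bp, from 40569401 to 40570300 on chromosome 8 of the assembly that the submitters name as ARS-UCD1.2. Each tile starts 100 bp after the tile before it. All of them were classed as promoter, upstream of a coding sequence on the plus strand from 40574216 to 40574308 (93 bp), at gaps of 4316 bp for the first tile down to 3916 bp for the last. No tile of the run overlaps that coding sequence, and how the authors set the promoter class is not given in the sources used. Whether that coding sequence is the first of GLIS3 is not given either. The run may therefore lie inside the gene rather than at its transcription start.

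The first GLIS3 tile, starting at 40569401, is listed in the authors' deposited table at -13.9 percentage points with a q of 8.63e-31. The tile starting at 40569501 had -13.5 (q = 3.30e-31) and the one starting at 40569601 had -13.4 (q = 1.27e-32) in the authors' deposited table. These 3 values lie within 0.490 percentage points of one another. Moving toward the coding sequence, the authors' deposited table lists -12.1 (q = 1.28e-25) at 40569701 and -11.1 (q = 4.14e-19) at 40569801. The size of the difference was thus highest at the end of the run farther from the coding sequence.

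The precision behind these values can be judged only through the deposited p-values. If each p is taken as a two-sided normal test of the difference, the implied standard error of the GLIS3 tiles was 1.11 to 1.23 percentage points. The implied 95% interval was -16.2 to -11.5 at the first tile and -13.5 to -8.74 at the last. These intervals overlap, but the first and last tile share bases, so the overlap does not show whether their values differ. The intervals cover only what the authors' test covered. Over the 7263 listed tiles with a p above 0, the median implied standard error was 0.498 and the upper quartile 0.811, so the GLIS3 values are among the less precise ones.

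All 5 GLIS3 tiles share the bases from 40569801 to 40569900. They are 5 overlapping readings of 1 stretch of DNA, not 5 sites, and only 1 of them remains when tiles that share no base are taken in order.

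The IKZF1 tiles form 1 run of 800 bp, from 5528801 to 5529600 on chromosome 4, and all 4 lie inside an intron. The table gives that intron from 5524293 to 5530053 (5761 bp) on the minus strand, so transcription enters it at the higher coordinate. The tiles end 453 to 753 bp from that edge. They sit near the 5′ end of the intron, and no listed tile of IKZF1 touches its coding sequence, untranslated regions or promoter class.

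The first IKZF1 tile, starting at 5528801, is listed in the authors' deposited table at 4.97 percentage points with a q of 3.25e-06. For the tile starting at 5528901 the authors' deposited table lists 2.98 (q = 6.45e-05). The next values were slightly higher, 3.38 (q = 8.95e-09) at 5529001 and 3.70 (q = 3.39e-10) at 5529101 in the authors' deposited table. The tile with the highest difference is therefore not the one with the lowest q. Its implied standard error was 1.07 percentage points, against 0.584 for the last tile. Their implied 95% intervals, 2.87 to 7.08 and 2.55 to 4.84, overlap. Because the first and last tile share bases, this overlap does not show whether their values differ.

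The change of 1.99 percentage points between the first and second IKZF1 tile was large for neighbours. Such tiles share 400 bp and differ only by the 100 bp that leave at one end and the 100 bp that enter at the other. Among 5597 pairs of listed tiles offset by 100 bp, the median change was 0.293 percentage points, and 97.1% of the changes were no larger than this one. The pairs were not matched for precision. The first IKZF1 tile had an implied standard error of 1.07, against a median of 0.498 over listed tiles with a p above 0. The largest change within GLIS3 was 1.29, between the tiles starting at 40569601 and 40569701, and 91.1% of pairs changed by no more than that. All 4 IKZF1 tiles share the bases from 5529101 to 5529300, so they too count as 1 locus.

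**Figure D1:**
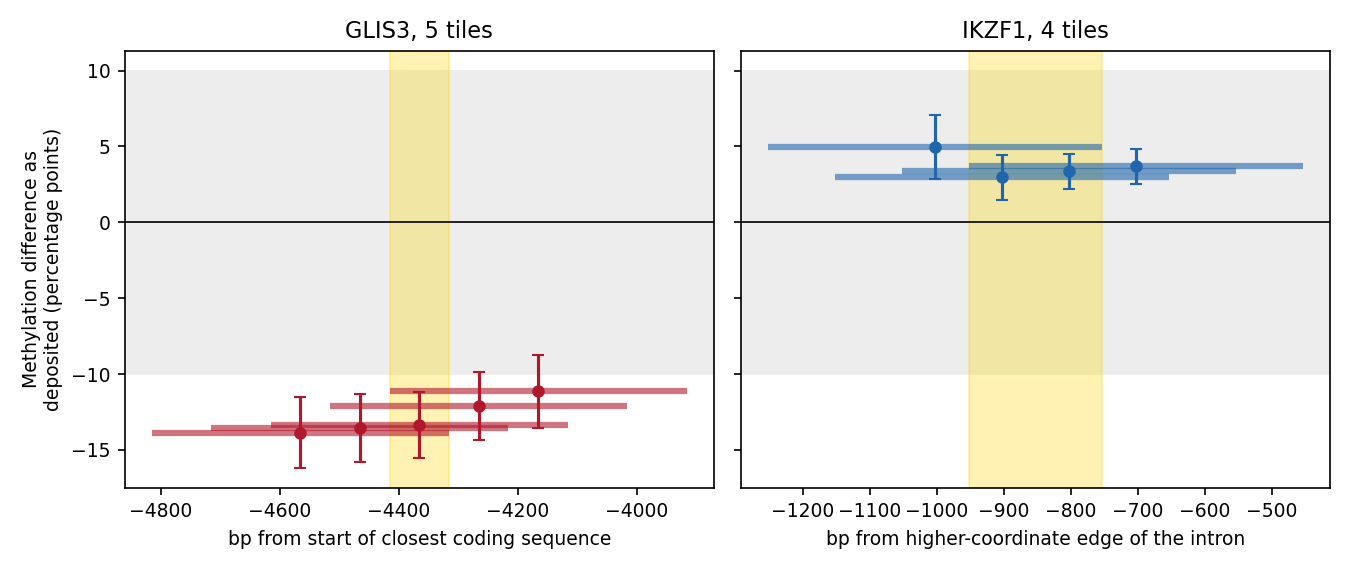
Deposited methylation difference (percentage points, y axis) of each tile of GLIS3 (left) and IKZF1 (right) against distance in bp from the start of the closest coding sequence or the higher-coordinate edge of the intron. Thick horizontal lines span each tile, points with bars give the tile's value with its implied 95% interval, yellow marks the bases all tiles share, and grey marks differences under 10 percentage points. The GLIS3 tiles lie between -13.9 and -11.1 and the IKZF1 tiles between 2.98 and 4.97.

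A tile is counted as called here where the deposited q is under 0.05 and the difference, negative or positive, reaches 10 percentage points. By that rule 5 of 5 GLIS3 tiles and 0 of 4 IKZF1 tiles were called, against a background of 2.78% of all 7290 listed tiles (203 tiles). Called tiles with a negative difference made up 2.63% of the list, and called tiles with a positive one made up 0.151% (11 tiles). The rarity of positive calls bears on how the IKZF1 count is read. At a q under 0.05 with no minimum difference, all 9 tiles of both genes passed, but so did 71.8% of all listed tiles. Passing tiles with a negative difference, like those of GLIS3, were 55.9% of the list. Passing tiles with a positive difference, like those of IKZF1, were 15.9%. Since the genes were picked with these values known, nothing is read from the contrast with the background.

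Within their own chromosomes the genes stood differently. The 5 GLIS3 tiles were the 5 called tiles among the 214 listed for chromosome 8, a background of 2.34% that consists of GLIS3 alone. No other tile of that chromosome was as negative as the weakest of the 5. The median difference there was -0.23 percentage points, and the highest value was 2.79. On chromosome 4, 0 of 184 tiles were called (0%), the IKZF1 tiles included. Positive tiles with a q under 0.05 were 26.1% of that chromosome's list. Its 184 differences ran from -6.28 to 7.79 percentage points, so IKZF1 was not at the edge of them.

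The members also stood toward the ends of their position classes. Of 743 tiles in the promoter class, 16 were called (2.15%), and 5 of those 16 were GLIS3 tiles. The median of that class was -1.18 percentage points, and 9 of its tiles, GLIS3 included, were at or below the weakest GLIS3 value. In the narrower class to which all GLIS3 tiles belong, promoter tiles with a coding sequence as closest feature, 14 of 260 were called (5.38%). The median there was -2.12, and 8 tiles, again GLIS3 included, were at or below that value. Among 704 tiles within an intron, 207 were positive and the median was -0.838 percentage points. In that class 15 tiles were at or above the lowest IKZF1 value and 2 at or above the highest, IKZF1 itself included.

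**Figure D2:**
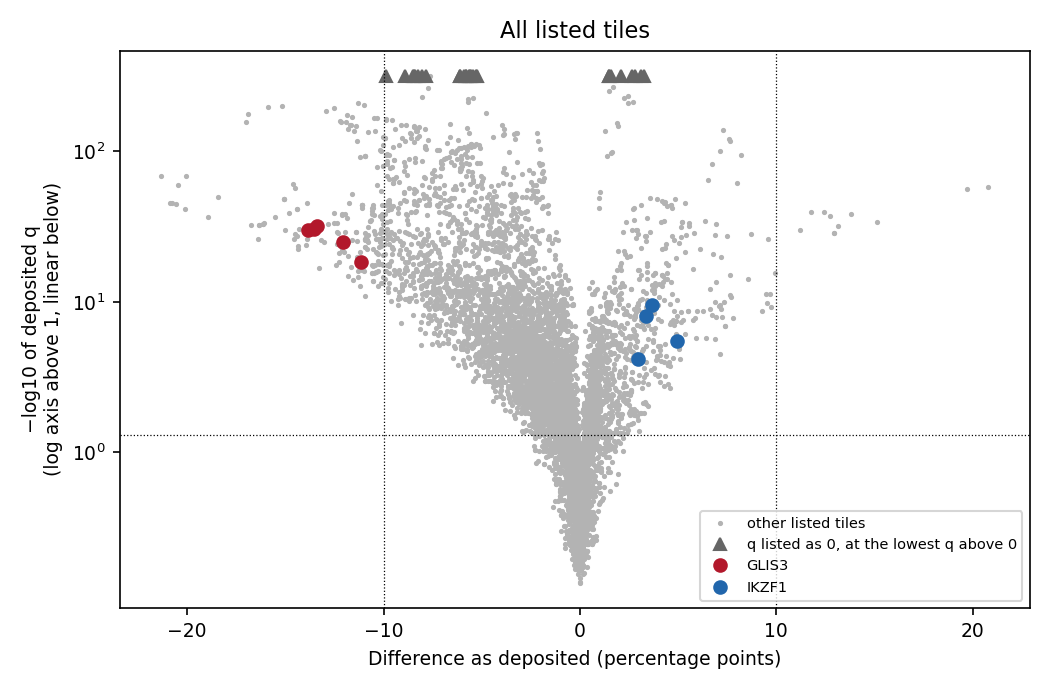
Difference as deposited (percentage points, x axis) against −log10 of the deposited q (y axis, log above 1 and linear below) for all 7290 listed tiles, with GLIS3 in red and IKZF1 in blue. Dotted lines mark a q of 0.05 and differences of 10 percentage points either way, and triangles are tiles whose q is listed as 0. All GLIS3 tiles lie outside the left line and all IKZF1 tiles lie between the lines, above the q line.

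Set beside other genes by median difference, GLIS3 and IKZF1 lay toward opposite ends, though single tiles of the list went further. Over all 7290 listed tiles, differences ran from -21.3 to 20.8 percentage points. The members included, 100 (1.37%) were at or below the weakest GLIS3 value and 239 (3.28%) at or above the lowest IKZF1 value. Of 540 gene IDs in the table, 215 had a description and at least 3 tiles. Ordered by the median difference over their tiles, GLIS3 was second from the lowest at -13.4 percentage points and IKZF1 was the highest at 3.54. Below GLIS3 stood an olfactory receptor 4C6-like gene at -20.7. It is reported as uncertain only because its family is multicopy, and the placement of its reads was not tested. The next genes after IKZF1 were serpin B4 at 3.10 and a UDP glucuronosyltransferase gene at 2.75, both from multigene families. The tiles of serpin B4 ran from 2.11 to 7.21 percentage points and spanned those of IKZF1, so the order between the top genes is within the spread of their tiles. Among all 274 gene IDs with at least 3 tiles, described or not, IKZF1 was second from the highest. Of those 274, 19 had a called tile, and only GLIS3 and the olfactory receptor gene had every tile called.

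The genes most like GLIS3 by median difference were MGAT4C, SEPTIN10, CA10, SERTM2 and RNF180. Likeness here is the gap between medians, over the described genes with at least 3 tiles. MGAT4C, of a glycosyltransferase family, came closest with a median of -10.4 percentage points over 5 tiles on chromosome 5, a gap of 2.96. SEPTIN10, a cytoskeletal gene, had -9.65 over 11 tiles on chromosome 11. The remaining medians were -9.62 for CA10 of the carbonic anhydrase family (4 tiles), -9.18 for SERTM2 (16 tiles) and -8.91 for the ubiquitin ligase gene RNF180 (8 tiles). All 5 are negative and lie on chromosomes other than that of GLIS3. Called tiles were not particular to GLIS3 among them. MGAT4C had 4 of 5 tiles called, SEPTIN10 3 of 11, and CA10, SERTM2 and RNF180 1 each. The weakest GLIS3 tile, at -11.1, overlapped the range of MGAT4C (-12.1 to -9.23) and of SEPTIN10 (-12.4 to -8.18) but not those of CA10, SERTM2 and RNF180.

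**Figure D3:**
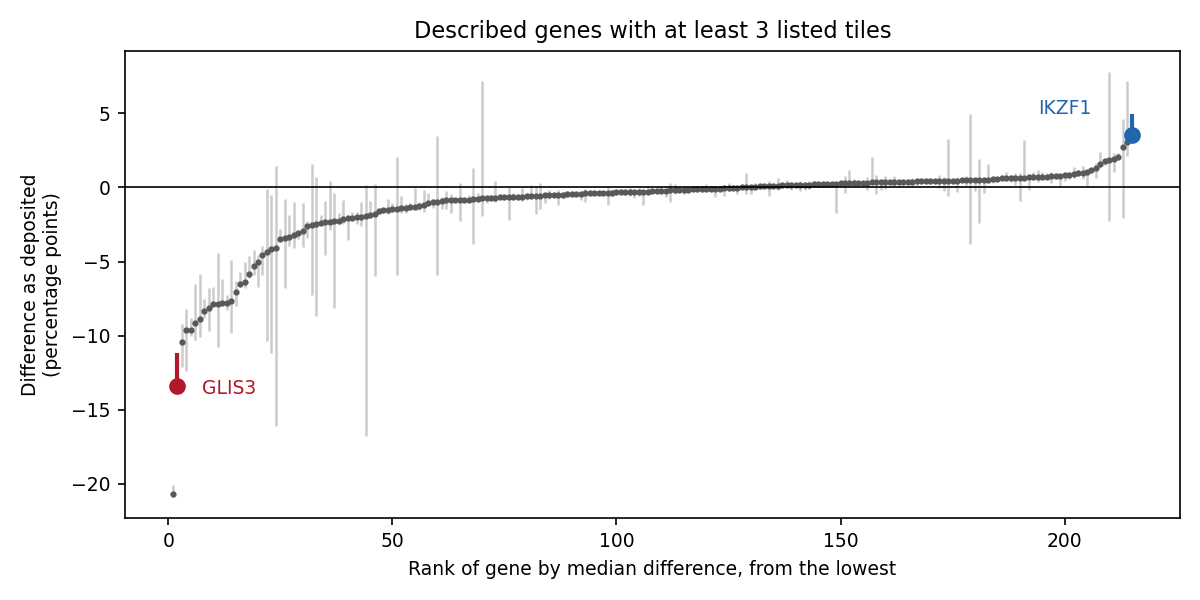
Median deposited difference (points) and range over tiles (vertical lines), in percentage points, for the 215 described genes with at least 3 listed tiles, ordered from the lowest median. GLIS3 (red) is second from the left at -13.4 and IKZF1 (blue) is last on the right at 3.54, while 128 medians are negative and 87 positive.

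Runs of tiles give a comparison that does not depend on gene names. Listed tiles within 1000 bp of one another form 1193 loci, of which 540 hold at least 4 tiles. By median difference GLIS3 was the fifth from the lowest of these 540 and IKZF1 was number 11 from the highest. Both runs kept a single sign throughout, as did 346 of the 540 (64.1%). The values within GLIS3 spanned 2.72 percentage points and those within IKZF1 1.99, against a median span of 1.46 for such loci. Precision was not matched between these loci.

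Both runs stood alone in the list. No other tile was listed within 50000 bp of either run. On chromosome 8 the nearest listed tile lay 727200 bp before the GLIS3 run, and the next one after it lay 1976500 bp away. On chromosome 4 the nearest listed tiles were 4923700 bp before and 6542300 bp after the IKZF1 run. Whether methylation beyond the runs also differed cannot be read from the list.

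The tiles of the closest listed genes were opposite in sign to the runs or did not pass, taking the tile with the largest difference of each gene. Before GLIS3 came SPATA6L, a spermatogenesis-associated gene, whose 1 tile, in the 5′ UTR, the authors' deposited table lists at 2.11 (q = 2.22e-13), a positive value where GLIS3 is negative. The first listed tile after GLIS3, from 42546801 to 42547300, has a CpG island and no gene as its closest feature and stood at 0.146 (q = 0.229) in the authors' deposited table. It overlaps tiles of the next listed gene, SMARCA2, a chromatin remodelling ATPase, whose larger tile stood at -0.279 (q = 0.112) in the authors' deposited table. Neither of the tiles named for SMARCA2 reached a q under 0.05. Around IKZF1 the neighbours were VSTM2A at -2.38 (q = 0.00716) and the imprinted gene PEG10 at -6.28 (q = 1.10e-10) in the authors' deposited table, both negative where IKZF1 is positive. Negative tiles were 112 of the 184 listed for chromosome 4, and positive tiles were 80 of the 214 listed for chromosome 8. Neighbours of opposite sign are thus common in the list, and nothing is read from them.

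Apart from the members, 18 described genes in the table carry "zinc finger" in their description, with 216 tiles between them. None of those 216 tiles was called, beside the 2.78% of all listed tiles and the 19 of 540 gene IDs (3.52%) with a called tile. Without ZNF331, which holds most of them, 40 tiles of 17 genes remain, too few to set this count apart from that background. Taking the tile with the largest difference of each gene, 7 genes had a negative and 3 a positive value at a q under 0.05, and 8 did not reach that q. Genes with any tile at that q were thus 10 of 18, while over the whole table they were 396 of 540 gene IDs (73.3%), and this difference was not tested. These shares are not matched for the number of tiles per gene, and a gene with more tiles has more chances to pass. In 15 of the 18 genes the largest difference was under 2 percentage points in size. The median of the 18 gene medians was -0.139 percentage points, beside -0.15 over all 540 gene IDs. Medians of single genes ran from -2.17 to 1.198, and the medians of GLIS3 and IKZF1 lie outside that range on either side. The set rests on the words "zinc finger" alone, so genes described by other words are outside it. Some of those had a called tile, as CXXC finger protein 4 (1 of 4) and ring finger protein 180 (1 of 8). Others had none, as ZIC1 (0 of 3).

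ZNF331, of the large family of KRAB-type zinc finger genes, accounted for 176 of the 216 tiles and is reported as uncertain because reads of such families can be placed on one another. Read placement could not be checked for any gene, so the same limit may hold for other ZNF genes named here. Its tiles on chromosome 18 ran from -5.89 to 3.47 percentage points, and 91 of them were negative and 8 positive at a q under 0.05, in the authors' deposited table. ZNF75D on chromosome X had 11 of 11 tiles positive at that q, the highest being 3.23 (q = 1.82e-12) in the authors' deposited table. That maximum lies within the range of the IKZF1 tiles. ZNF227 had a single tile at -2.17 (q = 0.00256), and ZNF814 had 3 positive tiles of up to 1.33 (q = 2.83e-10), in the authors' deposited table.

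The other genes with "zinc finger" in their description were close to 0. In the authors' deposited table the largest value of ZNF831 was 0.963 (q = 0.124) and that of ZNF398, on the chromosome of IKZF1, was -0.825 (q = 0.0131). ZDHHC7, which encodes a palmitoyltransferase, had 0.755 (q = 0.183), ZNF432 had 0.606 (q = 0.161) and ZNF202 had 0.558 (q = 0.0571) in the authors' deposited table. None of these 3 reached a q under 0.05. ZNF367, on the chromosome of GLIS3, stood at -0.55 (q = 0.00157), ZNF525 at 0.498 (q = 0.0294) and ZNF330 at -0.478 (q = 0.00558) in the authors' deposited table.

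**Figure D4:**
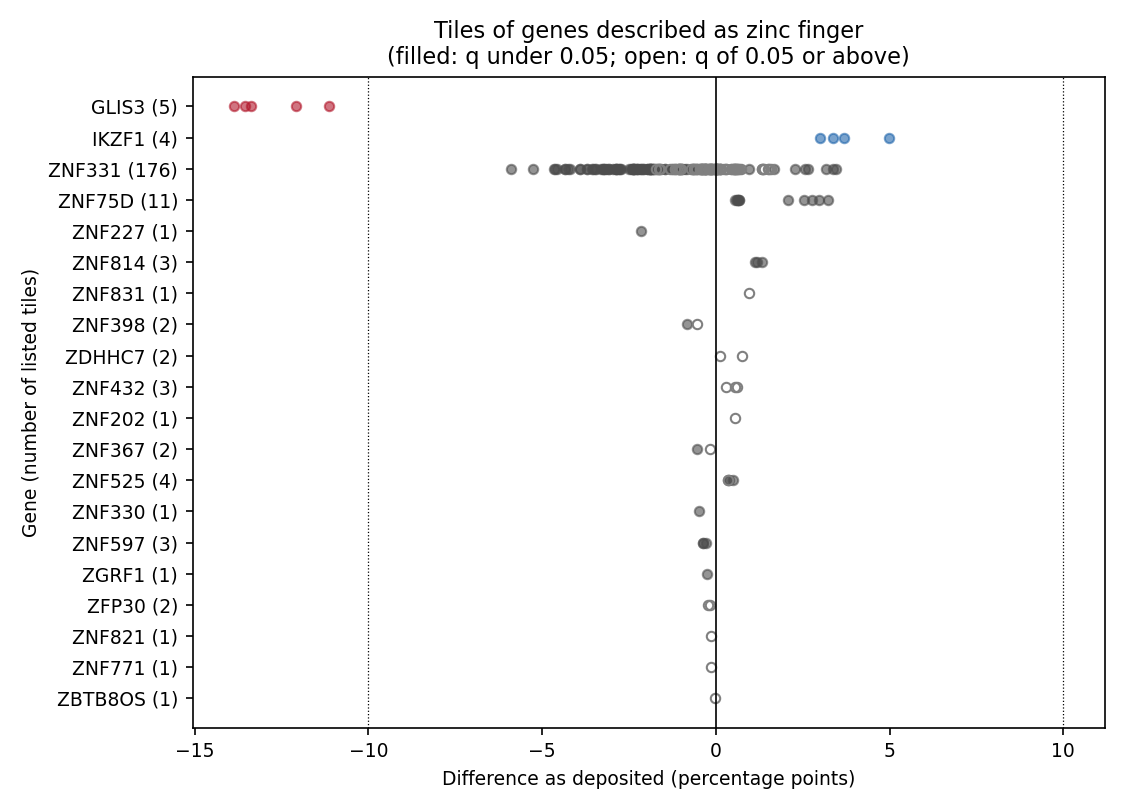
Deposited difference (percentage points, x axis) of every listed tile of GLIS3, IKZF1 and the 18 other genes described as zinc finger (y axis, number of tiles in brackets), filled where the deposited q is under 0.05 and open where it is not. Dotted lines mark 10 percentage points either way. The 5 GLIS3 tiles alone lie beyond a line, and the IKZF1 tiles overlap only ZNF331 and ZNF75D.

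Few genes known to work with GLIS3 or IKZF1 are in the table, which names 540 gene IDs in all, so most genes of any list would be missing from it. Of 11 GLI, GLIS and ZIC relatives, ZIC1 alone was listed, with -0.395 (q = 0.0109) at its largest tile in the authors' deposited table. None of the 4 other Ikaros family genes and none of 10 hedgehog and primary cilium genes was listed. Among 16 beta cell and thyroid genes, NKX2-1, a thyroid and lung factor, was listed at 0.287 (q = 0.112) in the authors' deposited table. Of 22 lymphoid partners of IKZF1, RUNX1, a blood cell factor, was listed at 0.18 (q = 0.0858) in the authors' deposited table. Neither NKX2-1 nor RUNX1 passed, none of the 3 genes was called, and 0 of 17 spermatogonial genes were listed. The markers of sperm, leukocytes and epithelium (23 genes) were also absent, so the labelled cell type could not be checked, and the part of other cells in the IKZF1 and GLIS3 values was not tested.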

How the data were processed

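EM-seq of sperm DNA was compared between 6 low BFI and 6 high BFI samples. Trimmomatic, Bismark and methylKit appear in the submitters' processing notes, with the builds ARS-UCD1.2 and bosTau9, without versions or roles. Per the file headers, the authors deposited for every tile the p-value, the q-value and the difference in methylation, with the distance to the closest annotated feature. Sequencing depth is unknown, and no source used here gives the authors' model.

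The groups were not tested anew, because the table has no column of one sample (0 such columns were left unmatched). On chromosome 8 the deposited q equals 0.445 times, and on chromosome 4 0.307 times, the Benjamini-Hochberg value of the deposited p over that chromosome's listed tiles (to within 1e-08 of the ratio). A q is therefore relative to its chromosome, and the alternative adjusts p over all 7290 tiles. The implied standard error is the difference divided by the normal quantile of its p.

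The members, the thresholds and the gene lists were chosen with earlier results of these data known. The text names both genes with every tile, their nearest listed genes, the 5 genes closest to GLIS3 in median difference, and up to 12 genes of each list by size of difference. Symbols were given by hand to 32 descriptions, and 31 of them were found on the same chromosome in a RefSeq gene table (ARS-UCD2.0), from which only names were taken. ZNF525 was not found there. The serpin B4, UDP glucuronosyltransferase and olfactory receptor genes were named after their values were seen. The adjustment and the implied error were tested on simulated data. Tables were read with pandas 2.3.3 under Python 3.11.15, computed with SciPy 1.17.1 and NumPy 2.4.6, and drawn with matplotlib 3.10.9. Alternatives were other minimum differences, a q under 0.01, the adjustment over all tiles, tiles that share no base and a window of 50000 bp.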

Additional observations from a re-analysis of the deposited data

How the results depend on the processing

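Of 25 values under alternative settings, 18 stayed close to the reported value, 7 moved and 0 changed sign. Several of the 18 could not have moved, so the tally is not a measure of robustness. No other tile lies within the window of 50000 bp. No stricter difference and no rule on q can add calls to the IKZF1 count of 0. With a minimum difference of 15 percentage points, 0 of the 5 GLIS3 tiles and 28 of all listed tiles were called; with 5 percentage points, all listed tiles called rose to 1124, while IKZF1 had 0 because its largest tile lies just under that minimum. Without a minimum difference, an alternative chosen after seeing the data, 4 IKZF1 tiles and 5236 of all tiles were called. Taking tiles that share no base left 1 called GLIS3 tile, and moved the IKZF1 median from 3.54 to 4.97 percentage points because its first tile alone remained. A q under 0.01 or the Benjamini-Hochberg adjustment over all tiles changed none of the 3 counts. No paired analysis was possible because the table holds no sample, and leaving out a sample was not run for the same reason. Depth is unknown, so the implied error is the only measure of precision.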

Other observations

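On chromosome 4, 2 loci had a higher median difference than the IKZF1 run. They lie at 105597801 to 105598600 (4.13 percentage points, 4 tiles) and 105629801 to 105630300 (4.69, 1 tile), and their gene IDs, ENSBTAG00000053682 and ENSBTAG00000050773, have no description in the table. Between them the authors' deposited table lists 18 tiles for a T cell receptor beta variable gene, from -2.27 to 7.79 percentage points, with 11 positive and 1 negative at a q under 0.05. Genes of that kind belong to a multigene family and are reported as uncertain. These loci were picked after their values were seen.

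The ratio of the deposited q to the Benjamini-Hochberg value within a chromosome was constant to within 1e-08 on 23 of 27 chromosomes. Its typical value ran from 0.00488 on chromosome 28 to 0.611 on chromosome 22. One p-value thus gives different q-values on different chromosomes, and 5007 of the 7290 listed tiles have a q below their p. The first 2 IKZF1 tiles are among them, with a p of 3.69e-06 and a q of 3.25e-06 at the first in the authors' deposited table. Adjusted over all listed tiles by Benjamini-Hochberg, that tile had 1.13e-05 and the first GLIS3 tile 1.92e-30.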
